A study of Mus musculus with 24 samples.

Results

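The normal difference between a slow and a fast hindlimb muscle was read from 12 control samples, the 6 soleus and the 6 quadriceps samples titled as controls among the 24 arrays of the series. The soleus is a small postural muscle of the calf, rich in slow and oxidative fibres, and the quadriceps of the thigh is made mostly of fast glycolytic fibres in the mouse. Muscle fibres are classed by their myosin heavy chain (type I with Myh7, IIA with Myh2, IIX with Myh1 and IIB with Myh4, from slow to fast). Each class carries its own set of troponins, light chains, calcium pumps and metabolic enzymes. Slow fibres burn fat and lactate in mitochondria and contract for long periods, whereas fast glycolytic fibres break down glycogen for short bursts.

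All mice were males of 40 to 42 days whose background mixed C57BL/6J with 1219S6/SvEvTac (the label's spelling). They carried 2 conditional copies of the nebulin gene (Neb), so that the controls were not wild type. The control groups lacked the MCK-Cre transgene, which is described as muscle-specific. The other 12 arrays came from the same 2 muscles of nebulin knockout (cKO) mice, which carried both the allele and the transgene. They serve as a second pair of muscles, and they also entered the choice of genes and the estimate of each gene's spread. Total RNA of whole muscle kept in RNAlater was hybridised to Affymetrix mouse gene arrays, 1 sample per array, and the labels call the samples of a group biological replicates.

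Levels are given as log2 of the deposited array intensity, and a difference is soleus minus quadriceps on that scale, so that 1 log2 unit is a 2-fold difference. The test was limma's moderated test over 15999 genes with 1 symbol and a signal above the dim limit (log2 levels of 3.55 to 3.72 on the control arrays) on at least 6 arrays, and genes with a Benjamini-Hochberg adjusted p under 0.05 were called. In whole muscle, fewer cells of a type and less RNA per cell cannot be told apart.

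Of the 15999 genes, 5362 (33.5%) were called. Higher in soleus were 2434 genes (15.2%) and lower were 2928 (18.3%). Counts of called genes in the lists below are to be read against these shares. Differences of at least 2-fold were fewer, 159 genes higher (0.994%) and 247 lower (1.54%). All 6 soleus arrays read above all 6 quadriceps arrays for 630 genes (3.94%) and below them for 1236 (7.73%). Counts of genes without overlap are to be read against these shares. Any 2 arrays of the quadriceps correlated with r of 0.963 to 0.991 across genes and any 2 of the soleus with 0.977 to 0.992, against 0.945 to 0.98 between the muscles. The share of higher genes among those called was 45.4% in the deposited values, 22.3% after median centring of the arrays (1196 higher, 4176 lower), 56.2% with centring on the 75th percentile (3235 higher, 2517 lower) and 44.8% after quantile normalization. The median difference of all genes moved from 0.03 to -0.07 with median centring, so small differences are read against that shift. Some arrays stood apart from their group. Quadriceps 4 and 6 and soleus 1 had the lowest array weights in limma's estimate (0.207, 0.389 and 0.394), and soleus 1 held the lowest values of many fast genes. For some genes with an extreme value on 1 of these arrays, the difference is also given without it.

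**Figure D1:**
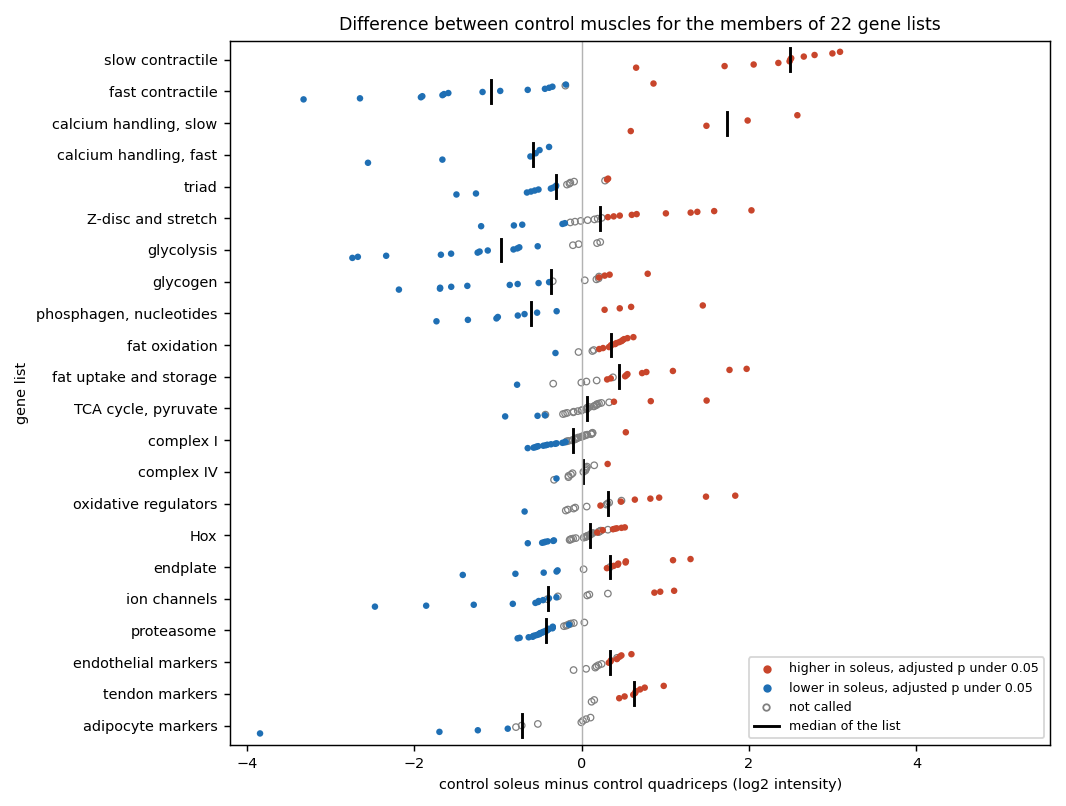
Each point is 1 gene, placed by its difference between the control muscles (soleus minus quadriceps, log2 intensity), for the measured members of 22 gene lists. Filled points passed the test (red higher in soleus, blue lower), open points did not, and the black bar is the median of the list. The slow contractile list lies furthest to the right, with all 11 members called higher, and the fast contractile, glycolysis and adipocyte lists lie to the left.

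Contractile isoform genes separated the muscles. All 11 measured slow isoform genes were called higher in soleus, with a median difference of 2.49, against 0.03 over all genes. None of the 11 overlapped between the muscles, and over all genes 3.94% lay wholly above in soleus. Of the 16 fast isoform genes, 14 were lower and 1 was higher, with a median of -1.08. The 1 higher fast gene was Myh2, and Myh1 was not called. Both counts used lists of known isoforms that were chosen with earlier results of these data known. They are therefore a description and not a test of the tissue labels. The same counts, 11 higher and 14 lower, were found without the 3 control arrays of lowest array weight (quadriceps 4 and 6 and soleus 1).

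Of the myosin heavy chains, Myh7 (mm10 chr14:54970684-54994626), the slow chain, read 8.98, 9.33 and 11.12 (lowest, median and highest of the 6 arrays) in quadriceps and 12.46, 12.51 and 12.92 in soleus. The groups did not overlap, and the difference was 2.78 (SE 0.25, limma adjusted p = 3.01e-09), or 6.88-fold. Quadriceps arrays 1 and 6 stood above the other 4, at 11.12 and 10.90 against 8.98 to 9.37. Myh2 (chr11:67171027-67197517), the IIA chain and nominally a fast one, was also higher in soleus. It read 11.18, 11.58 and 12.28 in quadriceps and 12.46, 12.54 and 12.70 in soleus, a difference of 0.86 (SE 0.12, adjusted p = 1.93e-06). Myh1 (chr11:67200102-67224577), the IIX chain, did not pass the test. Its difference was -0.20 (SE 0.24, adjusted p = 0.565), with overlapping ranges of 11.64 to 12.46 in quadriceps and 10.81 to 12.36 in soleus.

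Myh4 (chr11:67237812-67260447), the IIB chain of the fastest fibres, read within 12.77 to 12.84 on all 6 quadriceps arrays and 7.41, 11.03 and 11.78 in soleus. No soleus array reached the quadriceps range, and the difference was -2.65 (SE 0.55, adjusted p = 0.000475), or 6.27-fold lower. The soleus values fell apart, with 7.97 on array 1 and 7.41 on array 4 against 10.87 to 11.78 on the other 4. Without array 1 the difference was -2.21 and without array 4 it was -2.10 (adjusted p = 0.00153 and 0.00116). The quadriceps values sit near the top of the deposited scale, whose highest intensity is 10075 before log2, and whether such bright probe sets understate a difference was not tested. Further chains were higher in soleus as well. Myh7b, a slow-type chain, differed by 1.71 (SE 0.14, adjusted p = 3.71e-10), and Myh6, the cardiac alpha chain next to Myh7 on chromosome 14, by 2.0 (SE 0.13, adjusted p = 6.26e-12). Myh3, the embryonic chain, was 1.78 higher (SE 0.40, adjusted p = 0.001) with overlapping ranges, and Myh8, the perinatal chain, had a difference of 0.14 (adjusted p = 0.554). The soleus array 1 held the highest Myh3 value, 9.80 against 6.65 to 7.68 on the others, and without it the difference was 1.33 (adjusted p = 0.00132). Near-identical exons of neighbouring myosin genes can share probes, so the small differences of single chains are uncertain.

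**Figure D2:**
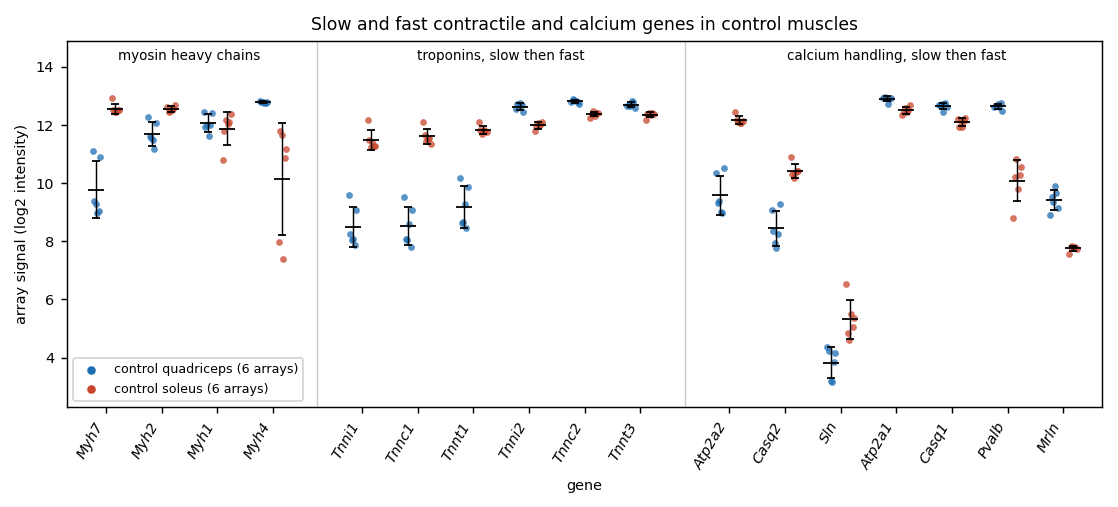
Log2 array intensity of slow and fast isoform genes on each control array (blue quadriceps, red soleus, 6 points each), with the mean and SD as black bars. The slow genes lie higher in soleus without overlap, and Myh4 shows soleus arrays at 7.97 and 7.41 far below the other 4.

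Regulatory proteins of the thin filament held the largest differences of the slow list. Slow troponin C (Tnnc1, the calcium sensor) read 7.81, 8.35 and 9.52 in quadriceps and 11.36, 11.54 and 12.11 in soleus. The difference was 3.09 (SE 0.20, adjusted p = 3.58e-12), or 8.49-fold. Slow troponin I (Tnni1, the inhibitory subunit) differed by 3.0 (SE 0.21, adjusted p = 2.02e-11) and slow troponin T (Tnnt1, which binds tropomyosin) by 2.65 (SE 0.20, adjusted p = 7.08e-11). The fast partners differed much less. Tnni2 was 0.64 lower in soleus, Tnnc2 0.44 and Tnnt3 0.35 lower, each with no overlap between the groups and adjusted p-values of 2.92e-07, 4.9e-06 and 0.000123. All 3 fast troponins read between 11.78 and 12.89 in both muscles. Whether such bright probe sets understate a difference was not tested here either. Slow tropomyosin (Tpm3) was 2.48 higher in soleus and the fast form Tpm1 was 0.39 lower, while Tpm2, which fast and slow fibres share, was 0.22 higher (adjusted p = 0.00181). With median centring the Tpm2 difference was 0.12 and did not pass the test.

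Myosin light chains and binding proteins divided by fibre class too. The slow regulatory chain Myl2 read 9.31, 10.01 and 10.67 in quadriceps and 12.18, 12.26 and 12.57 in soleus, a difference of 2.35 (SE 0.16). The slow essential chains Myl3 and Myl6b differed by 2.50 and 2.49. The fast regulatory chain Mylpf was 0.97 lower in soleus (adjusted p = 3.63e-10), while the fast essential chain Myl1, which overlapped between the groups, was 0.19 lower (adjusted p = 0.0152). With centring on the 75th percentile Myl1 differed by -0.14 and after quantile normalization by -0.13, and neither passed the test. Mybpc2, fast myosin binding protein C, read 11.81, 12.19 and 12.28 in quadriceps and 6.39, 9.05 and 10.01 in soleus. That is 10-fold lower (log2 difference -3.32, SE 0.41, adjusted p = 4.64e-07), with the lowest soleus value again on array 1, without which it was -2.84. Its slow counterpart Mybpc1 was 0.65 higher in soleus. Mylk2 and Mylk4, kinases that act on myosin light chains, were 1.65 and 1.92 lower. For Mylk4, soleus array 1 read 7.54 against 9.25 on the nearest array. Leaving out 1 control array gave Mylk4 differences of -2.05 to -1.59.

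Mybph and Actc1 differed in the opposite direction to Myh3. Mybph, myosin binding protein H, read 9.93 to 10.51 in quadriceps and 5.97 to 8.17 in soleus, a difference of -3.67 (SE 0.23, adjusted p = 2.73e-12). Actc1, cardiac actin, which is also made in developing skeletal muscle, differed by -2.44 (SE 0.25, adjusted p = 1.76e-08). Acta1, the main skeletal actin, differed by 0.03 (adjusted p = 0.697). Of the 12 genes in this list of developmental and cardiac isoforms, 5 were higher and 2 lower. Mhrt, an antisense transcript at the Myh7 locus, was 2.44 higher (SE 0.28). Whether the probe sets of Mhrt and Myh7 each read only their own strand was not checked.

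The DNA just before the start of 6 of the slow and fast genes is printed as examples of matches to searched motifs. The 250 bases before an annotated start are from RefSeq on GRCm38.p6, the assembly that mm10 names, 5′ to 3′ on the gene's strand. Capitals mark letters that equal a searched motif or its reverse complement. The 6 were chosen after their differences and matches were seen, so they do not stand for the slow and fast sets. The first 3 genes were higher in soleus and the last 3 lower.
Tpm3 (chr3:90072401-90072650, plus strand): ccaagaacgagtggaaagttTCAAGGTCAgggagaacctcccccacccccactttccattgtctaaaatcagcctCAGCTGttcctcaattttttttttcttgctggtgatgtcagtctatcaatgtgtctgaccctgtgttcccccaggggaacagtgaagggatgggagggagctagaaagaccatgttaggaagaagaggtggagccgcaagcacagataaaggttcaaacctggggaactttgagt
Myh7b (chr2:155610993-155611242, plus strand): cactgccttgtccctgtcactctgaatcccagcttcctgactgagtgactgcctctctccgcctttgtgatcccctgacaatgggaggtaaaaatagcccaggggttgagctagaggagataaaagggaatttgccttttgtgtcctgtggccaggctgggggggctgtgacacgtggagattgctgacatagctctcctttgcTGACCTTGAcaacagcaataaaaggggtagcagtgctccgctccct
Casq2 (chr3:102086165-102086414, plus strand): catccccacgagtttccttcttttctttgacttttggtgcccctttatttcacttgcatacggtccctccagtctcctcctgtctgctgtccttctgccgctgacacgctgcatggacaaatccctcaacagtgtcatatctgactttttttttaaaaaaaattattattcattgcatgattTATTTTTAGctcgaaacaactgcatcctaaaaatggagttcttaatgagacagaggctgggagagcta
Myh4 (chr11:67237562-67237811, plus strand): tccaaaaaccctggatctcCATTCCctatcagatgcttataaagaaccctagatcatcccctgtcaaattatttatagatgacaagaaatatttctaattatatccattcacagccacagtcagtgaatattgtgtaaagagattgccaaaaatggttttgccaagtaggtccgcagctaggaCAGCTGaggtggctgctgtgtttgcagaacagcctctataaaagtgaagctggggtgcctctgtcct
Mybpc2 (chr7:44524670-44524919, minus strand): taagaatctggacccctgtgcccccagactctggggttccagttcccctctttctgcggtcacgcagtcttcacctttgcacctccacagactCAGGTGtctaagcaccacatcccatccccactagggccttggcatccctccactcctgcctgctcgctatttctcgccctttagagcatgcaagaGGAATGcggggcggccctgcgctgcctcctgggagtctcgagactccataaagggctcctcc
Mrln (chr10:70204414-70204663, plus strand): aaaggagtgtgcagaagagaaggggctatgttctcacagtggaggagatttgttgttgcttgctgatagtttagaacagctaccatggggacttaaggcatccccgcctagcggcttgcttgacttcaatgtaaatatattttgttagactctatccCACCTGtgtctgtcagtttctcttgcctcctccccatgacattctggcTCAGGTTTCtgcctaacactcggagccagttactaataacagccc

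In Tpm3 the letters TCAAGGTCA, a motif of estrogen-related receptors, begin 230 bases before the start and the E-box CAGCTG, read by the MyoD family, begins 175 before it. Myh7b holds the first of these on the reverse strand 46 bases before its start, and Casq2 a reverse copy of CTAAAAATA, a MEF2 motif, 68 bases before. Myh4 holds CATTCC, a TEAD motif, at 231 and CAGCTG at 67 bases before its start. Mybpc2 holds reverse copies of CACCTG at 157 and of CATTCC at 62, and Mrln holds CACCTG at 93 and TCAGGTTTC, a MEF3 motif read by Six2 and its relatives, at 45. A match is a description of letters, not of a bound factor.

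The motifs were counted in 300-base windows (250 before to 50 after the start, both strands) of the genes called with at least 2-fold differences. Those higher in soleus had 179 windows for 118 of 159 genes, those lower had 205 for 164 of 247, and all tested genes had 15785 for 12550. CAGCTG stood in 22.3% of the higher windows, 21.5% of the lower and 16.5% of all. CACCTG stood in 21.2%, 21.5% and 19.6%, and CATTCC in 15.6%, 11.2% and 12.8%. TCAAGGTCA was found in 2 windows of the higher genes (1.12%), in none of the lower and in 46 of all (0.291%). TGACCTTTG, another nuclear receptor motif, was found in none of the higher and in 3 windows of the lower genes (1.46%), against 0.361% of all. The MEF2 motif CTAAAAATA stood in 1.12% of the higher, 0.488% of the lower and 0.336% of all, CTATTTATA in 0.559%, 0.976% and 0.443%, and TTAAAAATA in 0.559% of the higher, none of the lower and 0.513% of all. The long MEF3 motif TCAGGTTTC stood in 1.12%, 0.976% and 0.374%. TCAGGTT, the core of the longer MEF3 motif, was found in 3.91%, 3.9% and 3.43%, and GGAAAA, an NFAT core, in 17.9%, 18% and 20.7%. The longer NFAT motif GGAAAATT was found in 1.12%, 2.93% and 0.71%. These shares were not tested, and windows of 1 gene can overlap.

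Genes of calcium handling differed by fibre class as well. Slow fibres pump calcium with SERCA2 (Atp2a2) and store it on Casq2, and fast fibres use SERCA1 (Atp2a1), Casq1 and the cytosolic buffer parvalbumin (Pvalb). Atp2a2 read 8.98, 9.35 and 10.51 in quadriceps and 12.05, 12.12 and 12.44 in soleus, a difference of 2.58 (SE 0.19, adjusted p = 3.63e-11). Casq2 was 1.98 higher (SE 0.17, adjusted p = 1.44e-09). All 4 measured genes of the slow list were higher, among them sarcolipin (Sln) by 1.49 and phospholamban (Pln) by 0.59, small proteins that inhibit the pump. Sln was dim on 2 quadriceps arrays, and its highest soleus value, 6.53, came from array 1. All 6 genes of the fast list were lower, with no overlap in any of them.

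Pvalb read 12.49, 12.64 and 12.75 in quadriceps and 8.82, 10.26 and 10.84 in soleus, or 5.87-fold lower (log2 difference -2.55, SE 0.30, adjusted p = 1.72e-07). Myoregulin (Mrln), the pump inhibitor of fast fibres, was 1.66 lower (SE 0.13), Casq1 0.55 lower and Atp2a1 0.39 lower. Of 17 genes of the triad, where the surface voltage signal opens the calcium store, 10 were lower, 2 higher and 5 not called, with 11 lower and none higher after median centring. The largest differences were those of Cacng1, a subunit of the voltage sensor, at -1.50 (SE 0.11, adjusted p = 5.44e-11), and of Jph2, a junction protein, at -1.26 (SE 0.11). The channel genes themselves differed little. Ryr1, the release channel, had a difference of -0.14 (adjusted p = 0.259) and Cacna1s, the voltage sensor, of -0.34 (adjusted p = 0.00186).

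Proteins that link and sense tension at the Z-disc went both ways. Of 22 genes, 10 were higher in soleus and 5 lower, or 8 and 6 with median centring. Csrp3, the muscle LIM protein, read 7.20, 8.44 and 8.75 in quadriceps and 9.82, 10.34 and 10.95 in soleus, a difference of 2.03 (SE 0.18, adjusted p = 2.67e-09). Ankrd2, a stretch-response gene, was 1.38 higher, Fhl2 1.30, Fhl1 1.01 and Pdlim1 1.58 higher, each without overlap. The calcineurin-binding Z-disc proteins divided by fibre class, Myoz2 being 2.05 higher and Myoz1 and Myoz3 1.18 and 1.59 lower. Actn3, the fast alpha-actinin, read 12.61 to 13.02 in quadriceps and 9.72 to 11.78 in soleus (difference -1.90, adjusted p = 1.94e-07), while Actn2, the form of all fibres, was 0.76 higher (adjusted p = 3.63e-06).

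At the M-band, which ties the thick filaments together, Myom3 was 2.13 higher in soleus (SE 0.23, adjusted p = 7.09e-08) and Myom2 was 1.66 lower (SE 0.15, adjusted p = 2.82e-09). The M-band gene Myom1 and the giant filament genes Ttn and Neb did not pass the test. Neb read 12.11, 12.28 and 12.50 in quadriceps and 12.04, 12.46 and 12.56 in soleus, a difference of 0.10 (SE 0.11, adjusted p = 0.538). Lmod2, which elongates thin filaments, was 1.31 higher and Tmod1, which caps them, 1.20 lower. Of 8 small heat shock genes and partners 4 were higher, with Hspb7 furthest apart at 1.55 (SE 0.20, adjusted p = 9.48e-07), and Hspb8 was lower by 0.72.

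Most genes of glycolysis were lower in soleus. Of 16 genes 12 were lower and none higher, with a median of -0.97, and none of the 12 overlapped between the muscles. The same 12 to 0 count was found under the 3 other scalings. The 3 enzymes with the largest differences regulate or branch from the pathway. Pfkfb3, which makes the activator of phosphofructokinase, read 7.97, 8.86 and 10 in quadriceps and 5.42, 5.96 and 7.11 in soleus, 6.68-fold lower (log2 difference -2.74, SE 0.30, adjusted p = 7.89e-08). Gpd2 and Gpd1, the mitochondrial and cytosolic enzymes of the glycerol phosphate shuttle, differed by -2.67 (SE 0.16) and -2.34 (SE 0.20). The main line was lower by less, from -0.53 for Aldoa (aldolase) and -0.75 for Pfkm (phosphofructokinase) to -1.22 for Pgk1 and -1.24 for Pkm (pyruvate kinase). Entry of glucose did not pass the test, with -0.10 for the insulin-responsive transporter Slc2a4 (adjusted p = 0.415) and 0.22 for hexokinase Hk2 (adjusted p = 0.128).

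Of 18 glycogen genes, 9 were lower in soleus and 4 higher, or 9 and 2 with median centring. Phosphorylase kinase, which turns on glycogen breakdown, was lower in 3 of its subunit genes. Phkg1, the catalytic subunit of muscle, read 10.13, 10.31 and 10.57 in quadriceps and 7.76, 8.13 and 8.54 in soleus (difference -2.18, SE 0.13, adjusted p = 1.53e-12), and Phka1 and Phkb both differed by -1.69. The phosphorylase Pygm itself was 0.76 lower, and the phosphoglucomutase gene Pgm1 1.56 lower. Gbe1, the branching enzyme, was higher by 0.79 (adjusted p = 1.12e-05), while Gys1, glycogen synthase, had a difference of 0.18 (adjusted p = 0.21). Prkag3, the regulatory subunit of AMP-activated kinase made mainly in glycolytic fibres, was 6.81-fold lower (-2.77, SE 0.17, adjusted p = 1.9e-12), and Prkab2, a scaffold subunit of that kinase, 3.54-fold lower (-1.83, SE 0.11). The catalytic subunits of that kinase did not pass the test, Prkaa1 at 0.19 and Prkaa2 at -0.18.

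Lactate genes differed in opposite directions. Ldha, the form that favours lactate production, was 0.80 lower (SE 0.10) and Ldhb, the heart form, 1.53 higher (SE 0.13, adjusted p = 4.57e-10). Ldhb read 8.33, 8.81 and 9.03 in quadriceps and 10.11, 10.16 and 10.52 in soleus. The lactate exporter Slc16a3 (MCT4) was 2.03 lower (SE 0.18, adjusted p = 1.41e-09) and the importer Slc16a1 (MCT1) 0.81 higher (SE 0.14, adjusted p = 4.33e-05). None of these 4 genes overlapped between the muscles.

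All 12 measured genes of the phosphocreatine and adenine nucleotide list were called, 8 lower and 4 higher, none with overlap. The AMP deaminases differed in opposite directions. Ampd1, the skeletal muscle form, read 11.42 to 11.72 in quadriceps and 10.07 to 10.46 in soleus (-1.36, SE 0.09, adjusted p = 1.15e-11). Ampd3 read 6.45 to 7.16 and 7.90 to 8.54 (1.45, SE 0.11, adjusted p = 1.53e-10). Gamt, the last enzyme of creatine synthesis, was 1.73 lower, and the creatine transporter Slc6a8 was 0.59 higher. Cytosolic muscle creatine kinase (Ckm) was 0.30 lower and the mitochondrial form Ckmt2 0.27 higher.

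**Figure D3:**
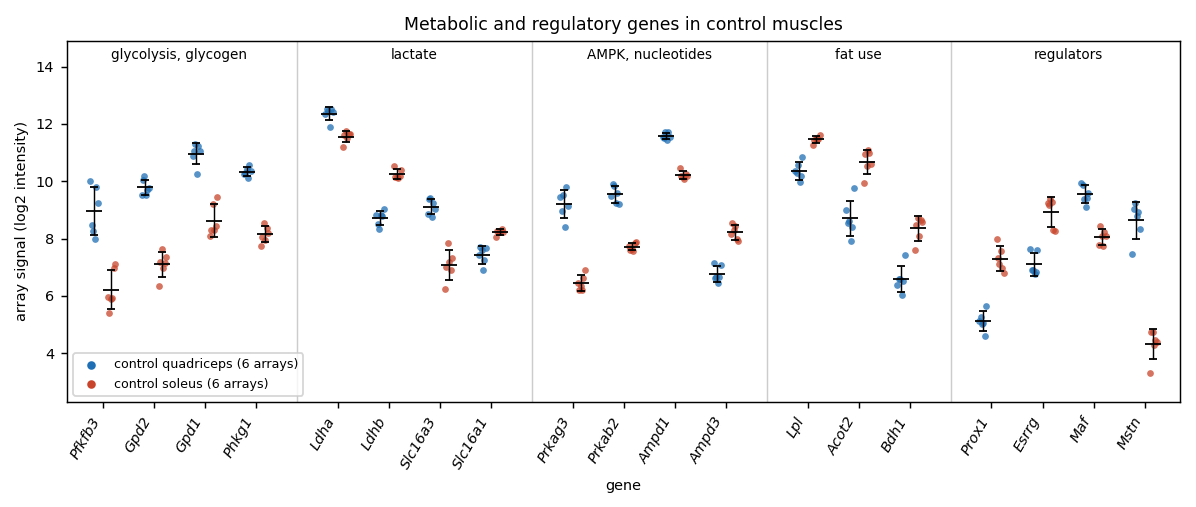
Log2 array intensity of metabolic and regulatory genes on each control array (blue quadriceps, red soleus, 6 points each), with the mean and SD as black bars. Pairs such as Ldha and Ldhb, Slc16a3 and Slc16a1, and Ampd1 and Ampd3 differ in opposite directions between the muscles.

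Most genes of fat use were higher in soleus, by smaller amounts. Of 17 fat oxidation genes, 13 were higher and 1, Acads, was lower, with a median of 0.35. The Acads call was lost without quadriceps 5 or soleus 2 (adjusted p = 0.0718 and 0.0636). The count of higher genes was 8 with median centring and 14 with the other 2 scalings. The largest was 0.62 for Etfdh, which passes electrons from fat oxidation to the respiratory chain (SE 0.11, adjusted p = 0.000101), and the trifunctional protein subunit Hadha differed by 0.41. Of 16 genes for uptake, storage and ketones 10 were higher. Lipoprotein lipase (Lpl) read 9.97, 10.32 and 10.86 in quadriceps and 11.27, 11.47 and 11.62 in soleus (1.09, SE 0.13, adjusted p = 2.17e-07). The thioesterase Acot2 was 1.97 higher (SE 0.21), the ketone body enzyme Bdh1 1.77 (SE 0.32), the fatty acid transporter Cd36 0.72 and the carrier Fabp3 0.55 higher. Ucp3, an uncoupling protein of muscle, was the 1 lower gene of that list, at -0.77 (adjusted p = 0.0412), and that call was lost without any 1 of 6 arrays (quadriceps 2, 3 or 5 or soleus 1, 2 or 3, adjusted p up to 0.12).

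Genes of the respiratory chain were seldom higher. Of 34 complex I genes 1 was higher and 14 were lower, with a median of -0.11, which was -0.22 with median centring (17 lower) and -0.03 after quantile normalization (11 lower). Complexes II and III had 4 lower of 14, complex IV had 1 higher and 1 lower of 13, and complex V had 2 higher and 3 lower of 15. With median centring these were 6 lower for complexes II and III, 6 lower for complex IV and 4 lower for complex V, with none higher. Over all genes 15.2% were higher and 18.3% lower in the deposited values. The complex V counts there were near these shares and do not set that list apart. Sdha, a subunit that is both complex II and citric acid cycle enzyme, differed by 0.01 (adjusted p = 0.93), and Cox4i1 by -0.16 (adjusted p = 0.178). The lowest were small subunits, among them Atp5e at -0.82 and Uqcr10 at -0.67. Of 28 citric acid cycle and pyruvate genes, 3 were higher and 3 lower, or 3 and 7 with median centring and 5 and 3 with centring on the 75th percentile. The clearest was Idh2, mitochondrial isocitrate dehydrogenase. Idh2 read 9.32, 9.82 and 10.13 in quadriceps and 11.12, 11.28 and 11.46 in soleus (1.49, SE 0.12, adjusted p = 1.37e-10).

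Regulators of oxidative metabolism were higher in 7 of 17 cases and lower in 1, with 5 and 2 after median centring and 11 and 1 under the other 2 scalings. Esrrg and Esrrb, estrogen-related receptors that drive mitochondrial genes, were 1.83 (SE 0.24, adjusted p = 1.19e-06) and 1.49 higher (SE 0.16, adjusted p = 4.09e-08), without overlap. Their relative Esrra had a difference of -0.19 and did not pass the test. The coactivator Ppargc1a spread over 8.24 to 10.96 in soleus and 8.33 to 9.15 in quadriceps, and its difference of 0.82 had an adjusted p of 0.0454. That call was lost without any 1 of 7 arrays (quadriceps 1, 4, 5 or 6 or soleus 2, 3 or 4, adjusted p up to 0.151). Myoglobin (Mb), the oxygen store, was 0.47 higher (SE 0.06), and Epas1, a hypoxia factor, 0.64 higher. Tfam, which packages and transcribes mitochondrial DNA, was 0.68 lower (adjusted p = 4.6e-05).

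Among 38 regulators of fibre type, 10 were higher and 14 lower, or 5 and 15 with median centring and 13 and 14 with centring on the 75th percentile. Prox1, a homeobox factor of slow fibres, read 4.60, 5.09 and 5.65 in quadriceps and 6.79, 7.23 and 7.99 in soleus, 4.52-fold higher (2.18, SE 0.15, adjusted p = 3.01e-11). Tead1, which acts on slow genes, was 0.75 higher (SE 0.10) and its partner Vgll2 0.77 higher (SE 0.15). The large Maf factors, which act on Myh4, differed by -1.50 for Maf (SE 0.12, adjusted p = 3.7e-10) and -0.89 for Mafa. Eya4 differed by -1.47, Six2 by -1.22 and Sox6, a repressor of slow genes, by -1.0 (SE 0.11, adjusted p = 1.04e-07). The calcineurin subunits Ppp3ca, Ppp3cb and Ppp3r1 were 0.71, 0.78 and 0.86 lower, and Rcan1, a calcineurin-responsive gene, was 0.96 higher (SE 0.22, adjusted p = 0.00115).

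Of 35 measured Hox genes, which set position in the embryo, above the dim limit 7 were higher and 7 lower. These shares are near those of all genes (15.2% higher and 18.3% lower), so the count does not set the list apart, and it was 9 higher and 5 lower with centring on the 75th percentile and 5 and 8 with median centring. Hoxa11, Hoxc11, Hoxd10, Hoxd11 and Hoxa13, posterior genes active in the distal limb bud, were higher by 0.37 to 0.52. Hoxc10, Hoxc8, Hoxc9 and Hoxa9 were lower by 0.34 to 0.64, and the Hoxc8 call was lost without any 1 of 5 arrays (quadriceps 3 or 6 or soleus 1, 3 or 6, adjusted p up to 0.0754). Hoxc10 read 8.26, 8.59 and 8.72 in quadriceps and 7.64, 7.90 and 8.01 in soleus (-0.64, SE 0.10, adjusted p = 1.54e-05). Hoxa11 was dim on 5 of 6 quadriceps arrays. Without the 3 control arrays of lowest weight the counts were 10 higher and 3 lower. Of 24 limb genes 6 were higher and 2 lower, or 5 and 5 with median centring. The higher ones included Tbx3 at 1.12 (SE 0.11, adjusted p = 2.12e-08) and the hindlimb gene Tbx4 at 0.53, and the lower ones were Tbx5 at -0.67 and Shox2 at -0.60.

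Growth regulation held the largest lower difference of any named gene. Myostatin (Mstn), a secreted brake on muscle growth, read 7.48, 8.87 and 9.24 in quadriceps and 3.31, 4.42 and 4.76 in soleus. That is 19.9-fold lower (-4.32, SE 0.28, adjusted p = 6.05e-12), with 1 soleus array under its dim limit. Its close relative Gdf11 was 1.87 lower (SE 0.17, adjusted p = 3.17e-09) and a receptor of both, Acvr1b, 1.52 lower (SE 0.14). In the list of 28 growth genes 6 were higher and 8 lower, or 3 and 9 with median centring. The ubiquitin ligases of atrophy went opposite ways, Fbxo32 at 0.62 and Trim63 at -0.56. Of 13 myokines 5 were higher and none lower, led by Ostn (osteocrin, also called musclin) at 1.83 (SE 0.21, adjusted p = 1.06e-07). Proteasome genes were lower together, 24 of 31 with none higher and a median of -0.42, and 22 to 30 of 31 under the 3 other scalings. Psmb5 (-0.77) and Psmd4 (-0.74) differed most.

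At the nerve-muscle contact, 8 of 15 genes were higher and 5 lower. Musk, the kinase that organises the endplate, was 1.30 higher (SE 0.20, adjusted p = 1.75e-05), and Ncam1, an adhesion molecule, 1.09 higher (SE 0.14). Ache, which breaks down acetylcholine, was 1.42 lower (SE 0.15, adjusted p = 5.25e-08) and the adult receptor subunit Chrne 0.79 lower, while the embryonic subunit Chrng differed by 0.02 (adjusted p = 0.887). Of 18 ion channel and pump genes 10 were lower. The potassium channel Kcnc4 read 8.08 to 8.54 in quadriceps and 6.38 to 6.63 in soleus (-1.86, SE 0.10, adjusted p = 2.15e-13). Of the genes for beta subunits of the sodium pump, Atp1b2 was 2.47 lower (SE 0.14) and Atp1b1 0.94 higher (SE 0.12). Kcnma1, a calcium-activated potassium channel, was 1.10 higher on its brightest probe set and 0.28 (adjusted p = 0.394) as the mean of its probe sets.

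Outside the lists, the largest differences were held by genes less often named with fibre type. Tecrl, an enoyl reductase-like gene best known from heart, had the largest of all genes named, 4.49 (SE 0.27, adjusted p = 2.13e-12). It read 2.53, 3.11 and 4.02 in quadriceps, where 5 of 6 arrays were dim so that the fitted difference is not exact, and 7.06, 7.27 and 8.53 in soleus. Lgi1, a secreted protein known from epilepsy, was 3.79 higher (SE 0.28, adjusted p = 4.78e-11), and P3h2, a collagen prolyl hydroxylase, 2.73 higher. Rspo3, a Wnt amplifier, and Npr3, the natriuretic peptide clearance receptor, were 2.52 and 2.47 higher. Lower were the tetraspanin Tspan8 at -3.89 (SE 0.19, adjusted p = 1.44e-13) and Mss51, which lies in mitochondria, at -3.87 (SE 0.31, adjusted p = 2.24e-10). Plcd4, a phospholipase C, differed by -2.54 and the spermine oxidase Smox by -2.36. None of these 9 genes overlapped between the muscles, which largely follows from naming them for large differences in this same contrast. Over all genes 3.94% lay wholly above in soleus and 7.73% wholly below.

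Some markers of other cells differed between the muscles, and their part in the results was not tested. Over all genes 15.2% were higher and 18.3% lower. Fabp4 is in both the endothelial and the adipocyte list, so the summed intensities of these lists share a gene. Of 14 endothelial markers 7 were higher in soleus and none lower (2 higher with median centring), and their summed intensity was 3824 to 5598 in quadriceps and 4810 to 6719 in soleus. Tendon markers were higher in 8 of 10 cases under each scaling, led by Chad at 0.98 and Comp at 0.75, with sums of 2161 to 3830 and 3636 to 4712. Matrix genes were higher in 8 of 31 cases and lower in 3, or 5 and 5 with median centring and 9 and 1 after quantile normalization, with Postn at 1.32 and Bgn at 0.96. Of 11 adipocyte markers 4 were lower and none higher, with sums of 2454 to 7135 in quadriceps and 1817 to 2747 in soleus. The highest sum was that of quadriceps 3, and the other 5 quadriceps arrays reached 3197 at most. Ucp1, the uncoupling protein of brown fat, read 6.80, 8.08 and 10.54 in quadriceps and 4.13, 4.50 and 4.73 in soleus (-3.84, SE 0.57, adjusted p = 7.54e-06). Its quadriceps values spread widely, and the highest came from array 3, which also had the highest Cidea, Thrsp and Adipoq. Without that array the Ucp1 difference was -3.40 (adjusted p = 2.2e-05).

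The other marker lists differed less. Over all genes 15.2% were higher and 18.3% lower, and the count of lower macrophage markers was near the latter share. Of 11 pericyte and smooth muscle markers 4 were higher and 1 lower, of 10 fibroadipogenic markers 4 were lower, and of 11 satellite cell markers 3 were higher (1 with median centring and 6 with centring on the 75th percentile), while Pax7 did not pass the test (0.25, adjusted p = 0.054). Of 15 macrophage markers 2 were lower (4 with median centring and none with centring on the 75th percentile), of 7 Schwann cell markers 2 were lower, and of 7 cartilage, bone and skin markers 3 were higher (1 with median centring). None of the 4 lymphocyte or the 2 red blood cell markers was called. Genes of the circadian clock (1 higher and 2 lower of 16) and immediate early genes (2 lower of 20) gave few calls.

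The 6 arrays of a muscle were not alike in their fast and slow genes. In quadriceps, arrays 1 and 6 held the highest values of Myh7, Tnni1, Tnnc1, Tnnt1, Tpm3 and Atp2a2, such as 9.60 and 9.08 for Tnni1 against 7.89 to 8.24 on the other 4. In soleus, array 1 had the lowest Mybpc2 (6.39), Pvalb (8.82), Actn3 (9.72) and Myh1 (10.81), and array 4 the lowest Myh4. Among genes chosen after their values were seen, Apool read 3.07 and 3.12 in the 2 muscles of number 6 and 7.96 to 8.49 on all other control arrays, and Gdpd3 read 6.80 to 8.33 in both muscles of numbers 2 and 5 and 3.55 to 4.22 elsewhere.

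**Figure D4:**
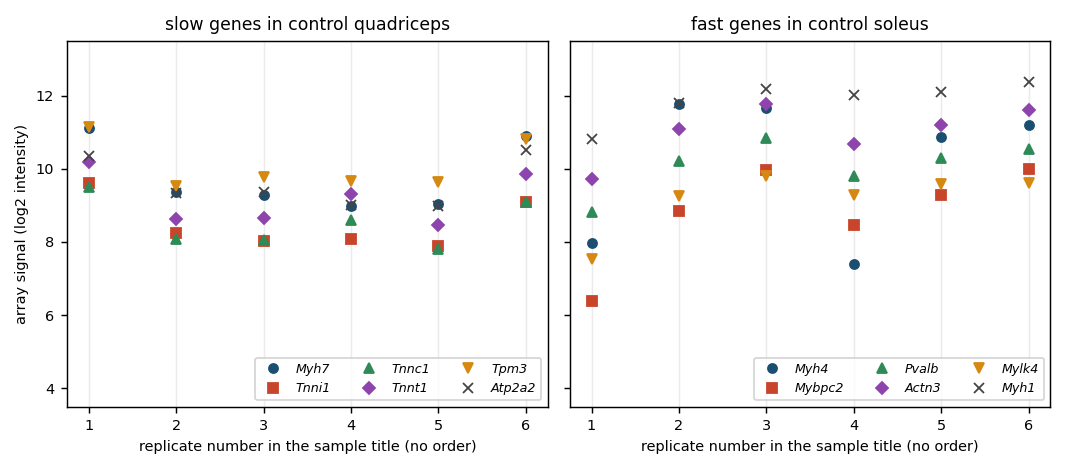
Log2 array intensity of 6 slow genes on each control quadriceps array (left) and of 6 fast genes on each control soleus array (right), by the replicate number of the sample title. Quadriceps arrays 1 and 6 hold the highest values of the slow genes, and soleus array 1 the lowest of Mybpc2, Pvalb, Actn3, Mylk4 and Myh1.

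The same muscles of cKO mice gave a second contrast on other arrays, whose own Neb levels were 10.50 to 11.16 in quadriceps and 10.94 to 11.48 in soleus. There 1907 genes (11.9%) were higher in soleus and 2707 (16.9%) lower. Of the 159 genes at least 2-fold higher in control soleus, 144 had the same sign in cKO and 108 were called there in that direction, with a median of 0.70 against 1.31 in controls. Of the 247 lower genes, 233 had the same sign and 193 were called, with a median of -0.81 against -1.29. The genes were chosen by their control values, so the smaller cKO medians are a description. The difference between the 2 contrasts, tested gene by gene with the same control arrays in it, was called for 1966 genes (12.3%), 783 higher in cKO (4.89%) and 1183 lower (7.39%). With the replicate number as a fixed block these were 1069 and 1797, and without quadriceps control 6 they were 1064 and 1792. With array weights they were 1545 and 2025, and in animals of 41 days only, with fewer arrays, 272 and 353.

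**Figure D5:**
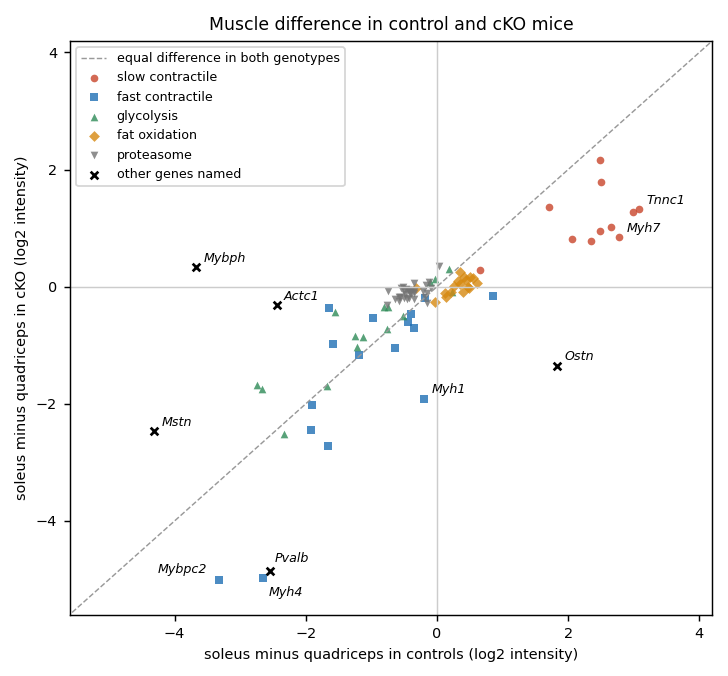
Soleus minus quadriceps (log2 intensity) in controls on the horizontal axis and in cKO mice on the vertical axis, for the members of 5 gene lists and for 5 other named genes (crosses). The dashed line marks equal differences, and the slow genes lie below it while Myh4, Pvalb and Mybpc2 lie furthest down.

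All 11 slow isoform genes were called higher in the soleus of cKO mice too, with a median of 1.01. Myh7 differed by 0.85 there, which is 1.93 less than in controls (adjusted p of the difference 0.000769), with quadriceps cKO levels of 11.90 to 12.37. Tnnc1 differed by 1.32 and Tnni1 by 1.28 in cKO. Myh4 and Pvalb differed by -4.98 and -4.85, more than in controls (adjusted p of the difference 0.0486 and 0.000613). The Myh4 call was lost without any 1 of 9 of the 12 control arrays, which gave adjusted p-values of 0.00511 to 0.0904 without 1 array. Myh1, not called between control muscles, was 1.92 lower in cKO soleus (adjusted p = 1.71e-06). Mybph was not called between cKO muscles (0.33, adjusted p = 0.272), with soleus cKO levels of 10.65 to 11.06, and the contrasts differed by 4.0 (adjusted p = 1.21e-08). Ostn was 1.35 lower in cKO soleus (adjusted p = 2.57e-05), against 1.83 higher in controls, and Mstn differed by -2.47.

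Metabolic genes differed in how the contrasts compared. For Gpd1, Fbp2, Pygm, Pgm1 and the regulator Maf the contrasts lay within 0.18 of each other, with SEs of the difference of 0.12 to 0.31 and adjusted p-values of 0.735 to 0.991. Ampd1 differed by 0.00 in cKO and Prkab2 by -0.10, and the difference of the contrasts was 1.36 and 1.73 (adjusted p = 8.68e-08 and 5.21e-08). Of 17 fat oxidation genes none was called between the cKO muscles, against 13 higher and 1 lower in controls, and the difference of the contrasts was called for 5 of them. Of 31 proteasome genes 4 were lower and 1 higher between the cKO muscles, where 16.9% of all genes were lower and 11.9% higher. The difference of the contrasts was called for 14 of the 31, against 12.3% of all genes. The glycolysis list gave 12 lower genes of 16 in cKO as well, with a median of -0.61.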

How the data were processed

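Gene expression was measured in 24 mouse muscle samples, 1 Affymetrix array each. The authors deposited 1 intensity per probe set and array on a linear scale (1.76 to 10075), made with Affymetrix Expression Console and RMA on mm10 per the submitters' processing notes. RMA corrects background, quantile-normalizes the arrays and summarises probe sets, which can compress large differences. Slides, scan dates and versions were not given in the sources used here.

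Log2 of these intensities was taken. Of 35557 probe sets, 21789 had 1 gene symbol, 1621 had several and 12147 had none listed and were left out with those. By Entrez number 21698 probe sets matched RefSeq on GRCm38.p6. Of 19938 genes, 999 had several probe sets, and the brightest on average stood for the gene. Genes above the array's 30th percentile on at least 6 arrays were kept, and 3939 were removed. The groups came from the sample titles. A limma model of the 4 group means (R 4.3.3, limma 3.58.1, lmFit and eBayes, 20 residual degrees of freedom) was fitted to all 24 arrays, with Benjamini-Hochberg adjustment across 15999 genes. It gave the muscle contrast in controls, the same in cKO and their difference. Precision is set by the number of arrays, and the median SE was 0.10 for the control contrast and 0.14 for the difference. The script was tested on simulated data.

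Samples with the same number deviated together (r of 0.155 to 0.305 in controls and 0.216 to 0.45 in cKO, each of the 6 best with its own number), so numbers were read as animals and used as a block in alternatives. The margin over the best other number varied, from 0.155 against 0.144 for control 5 to 0.305 against -0.0322 for control 1. That pairing comes from the data and the shared numbers. The labelled ages of same-numbered muscles are equal, except cKO 4, whose quadriceps is labelled 40 days and soleus 41, so that pair may not be 1 animal. Members and gene lists were chosen with earlier results of these data known. Named genes were the 25 largest differences each way among called genes (predicted, unnamed, small RNA and receptor family symbols aside), every member of lists of up to 20 genes and the 8 smallest p-values each way of longer lists, and the 10 largest genotype differences each way among 2-fold genes, from which the text takes examples. Other alternatives were median centring, 75th percentile centring, quantile normalization, other filters, the mean of probe sets, array weights, an eBayes trend, 41 days only, 12 controls only and leaving out each control array.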

Additional observations from a re-analysis of the deposited data

Results flagged for a closer look

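Some arrays lay far from the other 5 of their group. An array was singled out for a gene where the gap to its nearest neighbour exceeded 0.625 of the range of the 6 (Dixon's limit), which chance gives in about 1 of 20 groups. This held for 43 of 350 groups of named genes, and soleus 1 (18) and quadriceps 4 (17) made up most of them. What sets these arrays apart was not tested. The groups share arrays, and some genes, such as Apool, were chosen after their values were seen. The count of 43 is therefore a description and not a test against the rate of 1 in 20.

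Soleus 1 was the highest soleus array for slow and developmental genes. It read 12.92 for Myh7, 12.19 for Tnni1, 12.10 for Tnnt1, 11.92 for Myl3, 12.44 for Atp2a2, 10.89 for Casq2 and 10.70 for Pdlim1, and 9.80 for Myh3, 10.60 for Actc1 and 8.17 for Mybph. It was the lowest for the fast genes Myh1 (10.81), Tnnt3 (12.18), Mylk4 (7.54) and Mrln (7.58), and for Fbp2 (5.45), Mstn (3.31), Tspan8 (3.5) and Ppp3cb (8.44).

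Quadriceps 4 was the lowest quadriceps array for 14 genes, both fast muscle genes and others (Tpm2 and Slc6a8 were higher in soleus, and Ryr1, Prkaa1 and Prkaa2 were not called between the muscles). Contractile and calcium genes were among them, with Mybpc2 at 11.81, Actn3 at 12.61, Tpm2 at 12.24, Tmod1 at 10.26, Atp2a1 at 12.73, Ryr1 at 11.20 and Ppp3r1 at 8.85. The metabolic ones were Pfkm at 11.60, Ldha at 11.91, Pygm at 12.21, Phka1 at 9.94, Prkaa1 at 7.29, Prkaa2 at 9.33 and Slc6a8 at 8.77. It was the highest for Uqcr10 (10.27), Hoxc9 (7.73) and Hoxa9 (6.31). Quadriceps 6 was highest for Esrrb (5.55) and lowest for Tbx5 (4.10) and Apool (3.07), and soleus 6 lowest for Apool (3.12). Quadriceps 3 was highest for Postn (8.76) and Adipoq (9.21), quadriceps 1 lowest for Fbp2 (7.83) and quadriceps 5 lowest for Csrp3 (7.20).

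The muscle contrast differed between cKO and control mice for 82 of 175 named genes, by the limma test of the difference itself (adjusted over 15999 genes). Over all genes 12.3% were called, 4.89% higher in cKO and 7.39% lower. Some genes were named for the size of this difference, so the count of 82 partly follows from the choice. Values are the cKO contrast minus the control contrast, 30 above 0 and 52 below. Slow contractile genes were below 0, with Myh7 at -1.93, Tnnc1 at -1.76, Tnni1 at -1.72, Tnnt1 at -1.64, Myl2 at -1.57, Tpm3 at -1.54, Myl3 at -0.71, Myh6 at -0.55, Myoz2 at -1.24 and Myom3 at -1.33. Slow calcium genes were too, with Atp2a2 at -1.62, Casq2 at -1.28, Sln at -1.13 and Pln at -0.80. So were many fast ones, Myh4 at -2.33, Pvalb at -2.30, Myh1 at -1.72, Myh2 at -1.02, Myom2 at -1.06, Tnni2 at -0.40, Tnnt3 at -0.36 and Atp2a1 at -0.34, so that the 2 classes did not separate in this sign. Other fast genes lay above 0, Mylk2 at 1.29, Mylpf at 0.44, Mrln at 0.84, Myoz3 at 0.62, Jph2 at 1.09 and Cacna1s at 0.40.

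Developmental and Z-disc genes varied more. Mybph stood at 4.0 and Actc1 at 2.13, against Myh8 at -1.66, Chrng at -1.51, Ncam1 at -1.18, Csrp3 at -1.44, Lmod2 at -0.90, Hspb7 at -1.12, Fhl2 at -0.74, Fhl1 at -0.70 and Pdlim1 at -0.64. Of secreted factors and growth genes, Ostn differed by -3.18, Mstn by 1.85 and Gdf11 by 1.15, and the proteasome genes Psmd4 and Psmb5 by 0.66 and 0.44.

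Among metabolic genes, Gamt (1.74), Prkab2 (1.73), Smox (1.41), Ampd1 (1.36), Prkag3 (1.03), Gpd2 (0.92), Atp5e (0.51), Uqcr10 (0.45), Pkm (0.41) and Pfkm (0.40) were above 0. Esrrg (-1.45), Ampd3 (-1.12), Acot2 (-1.09), Lpl (-1.04), Idh2 (-0.79), Cd36 (-0.75), Gbe1 (-0.72), Slc16a1 (-0.69), Epas1 (-0.69), Etfdh (-0.56), Mb (-0.50) and Ldha (-0.48) were below. The regulators Six2 (0.84), Mafa (0.78), Eya4 (0.67), Hoxc10 (0.62) and Ppp3r1 (0.60) were above and Prox1 (-1.01) below. Of membrane and matrix genes, Atp1b2 (1.30), Kcnc4 (0.62) and Chrne (0.46) were above, and P3h2 (-1.68), Tecrl (-1.53), Npr3 (-1.40), Chad (-1.05), Rspo3 (-0.78), Atp1b1 (-0.57) and Postn (-0.54) below. The call was lost without at least 1 control array for Myh4, Myh6, Rspo3, Uqcr10, Atp5e, Pkm, Chrne, Postn and Psmb5 (highest adjusted p of 0.0656 to 0.0909).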

How the results depend on the processing

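Of 156 named genes called between the control muscles, 141 kept the call under every alternative that tested them (the stricter filter tested 152), 15 lost it under at least 1 and none changed direction. Restricting the arrays to animals of 41 days lost 10 of these calls, and fitting 12 control arrays only lost 6. Without 1 array Acads, Ucp3, Ppargc1a and Hoxc8 lost theirs.

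For the counts, median centring gave 1196 higher genes against 2434. Without 1 control array the control counts ran from 2098 to 2541 higher and 2647 to 3262 lower. With the replicate block they were 2956 and 3255 (fixed) or 3030 and 3278 (random), and 2122 and 2618 in the 12 controls, against 1702 and 2353 without the block. On 24 arrays neither block lost a call of a named gene. For the difference between genotypes, genes higher in cKO numbered 783, and 1545 with array weights, 1182 with the random replicate block, 272 at 41 days and 1567 without the 3 control arrays of lowest weight (chosen after seeing the data). Genes lower in cKO numbered 1183, and 771 with median centring, 2025 with array weights, 1797 with the fixed replicate block, 353 at 41 days and 2108 without the 3 arrays. Without 1 control array they ran from 622 to 1064 and from 959 to 1792, the highest without quadriceps 6. The causes were not tested.

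The named genes that changed sign were not called. With median centring Acta1 was at -0.0775, Myom1 at -0.0938, Neb at -0.0094, Sdha at -0.0947 and Chrng at -0.0836, and quantile normalization gave -0.0354 for Sdha and -0.0874 for Chrng. With array weights Myom1 was at -0.0477, Sdha at -0.0157 and Chrng at -0.0136, and without the 3 arrays Myom1 was at -0.0185 and Chrng at -0.10. Myh8 was at -0.0653 at 41 days. Without 1 array Myh1 ran from -0.29 to 0.0185, Myom1 from -0.0638 to 0.0657, Sdha from -0.0593 to 0.0608 and Chrng from -0.0311 to 0.0655.

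The array signal gives no read depth, and genes dim on a group's arrays, such as Tecrl in quadriceps, have fitted differences that are not exact.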

Other observations

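Small nucleolar RNA genes, which guide the modification of ribosomal RNA, were lower in control soleus as a group. Of 46 such genes 38 were called lower (18.3% of all genes were) and 1 higher, with a median difference of -1.15, and all 6 soleus arrays lay below all 6 quadriceps arrays for 29 of them. The median level of the 46 was 6.55 to 8.36 on the quadriceps arrays and 5.84 to 6.24 on the soleus arrays, with the highest on quadriceps 4. The count of lower genes was 43 with median centring, 35 with centring on the 75th percentile, 39 after quantile normalization and 35 without quadriceps 4. Between cKO muscles 27 were lower, with a median of -0.54.

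MicroRNA precursor genes went the other way. Of 149 measured, 58 were higher in soleus (15.2% of all genes were) and 3 lower, with a median of 0.19. These probe sets read the precursor or its host transcript and not the mature microRNA. The microRNA counts were not made under the other scalings. Median centring moved the median difference of all genes from 0.03 to -0.07, so a median of 0.19 depends in part on the scaling. Both groups were picked after their values were seen.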
